A study of Homo sapiens with 40 samples.

Results

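The 4 libraries described here, of 40 in the series, set BT474R cells given vehicle for 1 h (2 libraries) against BT474R cells collected at baseline, called T0 (2 libraries), and were chosen by line, treatment and time alone. BT474 is a HER2-amplified luminal breast cancer cell line, and BT474R is a single clone, clone 5, taken from BT474 cells that had been grown with the HER2 antibody trastuzumab. Cells of all 4 libraries had been serum starved. The vehicle was water in freshly made starvation medium, so the new medium, the water, the extra hour and the handling cannot be told apart, and no ligand (EGF or heregulin, HRG) was present in any of the 4. RNA was sequenced in bulk, so a change in RNA per cell and a change in which cells made up a dish cannot be told apart. Of 44584 names in the count table, 24287 were tested.

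When a cell meets a new medium or is disturbed, immediate early genes are usually the first to be transcribed, because the factors that turn them on are already present and only need to be modified. Their products are mostly transcription factors (FOS, JUN, EGR and NR4A proteins) and inhibitors that shut the signal off again, and their RNAs are short lived. Serum response factor binds CArG boxes and CREB binds cAMP response elements (CRE) in the promoters of many of them. Other early changes run through p53, which controls cell cycle arrest and death genes, through HIF, the factor of low oxygen, and through sensors of nutrients that act on the growth kinase mTOR.

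The promoters of 3 genes that rose are shown because they hold these sites. Most named genes that rose do not: of 39 with a promoter in the RefSeq table, 4 held a CArG box and 2 a CRE. In all 3, the 250 bases before the gene's start were read 5′ to 3′ on the gene's own strand from the RefSeq promoter table (build GRCh38.p14), and capitals mark the matched letters, 2 CArG boxes in EGR1 (chr5:138465229-138465478, plus strand), 1 CRE in PPP1R15A (chr19:48872171-48872420, plus strand) and 2 CREs in DUSP8 (chr11:1572272-1572521, minus strand).
EGR1: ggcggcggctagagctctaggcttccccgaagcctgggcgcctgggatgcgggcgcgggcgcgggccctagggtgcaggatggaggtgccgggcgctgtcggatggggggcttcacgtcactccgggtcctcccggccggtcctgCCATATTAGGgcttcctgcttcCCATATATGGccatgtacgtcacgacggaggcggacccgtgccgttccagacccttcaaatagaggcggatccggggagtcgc
PPP1R15A: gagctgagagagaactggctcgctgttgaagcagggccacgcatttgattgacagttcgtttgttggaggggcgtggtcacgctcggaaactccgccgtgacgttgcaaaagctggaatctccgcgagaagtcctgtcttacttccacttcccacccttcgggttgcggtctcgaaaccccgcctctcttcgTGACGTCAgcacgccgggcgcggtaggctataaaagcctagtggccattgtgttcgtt
DUSP8: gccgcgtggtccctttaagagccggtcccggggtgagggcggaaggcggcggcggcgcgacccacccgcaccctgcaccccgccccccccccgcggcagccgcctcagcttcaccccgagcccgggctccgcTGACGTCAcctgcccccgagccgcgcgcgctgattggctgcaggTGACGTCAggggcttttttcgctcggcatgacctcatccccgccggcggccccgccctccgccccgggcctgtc

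After 1 h with vehicle, many immediate early genes and p53 targets rose, and the mTOR inhibitor DDIT4 and a few HIF targets fell. In all, 277 genes rose (1.14% of those tested) and 267 fell (1.1%), together 544 genes or 2.24%, with edgeR's quasi-likelihood test and a Benjamini-Hochberg adjusted p under 0.05. These shares are the background for every gene list below. The lists were chosen with earlier results of these data known, so their counts and medians can reflect that choice. Most changes were small: the median size among the 544 was 0.45 on the log2 scale, 61 genes rose and 16 fell by a log2 fold change of 1 or more, and the median over all genes was 0.01. The spread was estimated over all 20 BT474R libraries, in which replicates of HRG and of vehicle at 24 h differed most. The median chi-square between replicates was 2.56 for HRG at 24 h and 1.58 for vehicle at 24 h, 1.18 for HRG at 1 h and 1.05 for EGF at 24 h, against 0.701 at T0, 0.724 for vehicle at 1 h and 0.455 from counting alone. The count was 1453 (734 up and 719 down) without the 24 h libraries and 2258 (1094 and 1164) with the 4 libraries alone. It was 216 without T0 replicate 1 (126 up and 90 down), 186 without T0 replicate 2 (105 and 81), 281 without vehicle replicate 1 (160 and 121) and 164 without vehicle replicate 2 (106 and 58). Of the 74 genes named here that were called, 37 stayed called with each of the 4 libraries left out in turn and 13 were lost each time.

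The 4 libraries held 16794594 and 21443106 counts at T0 and 24028440 and 33387936 with vehicle, so both vehicle libraries were deeper. With every library thinned to the smallest, 460 genes were called. The summed level of 8 luminal markers was 15612 and 15193 CPM at T0 and 16042 and 16081 with vehicle. CPM are counts scaled to a common library size, by raw totals for the marker sums given here and with TMM factors elsewhere. Of the markers of other cells, 6 basal ones summed to 3.78 to 4.17 CPM, 5 endothelial ones to 14.8 to 18.5 CPM and 6 leukocyte ones to 1.5 to 2.43 CPM. The 7 fibroblast markers summed to 171 to 201 CPM, nearly all of it COL1A1, and 5 of the 7 had at most 3 counts in each library.

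**Figure D1:**
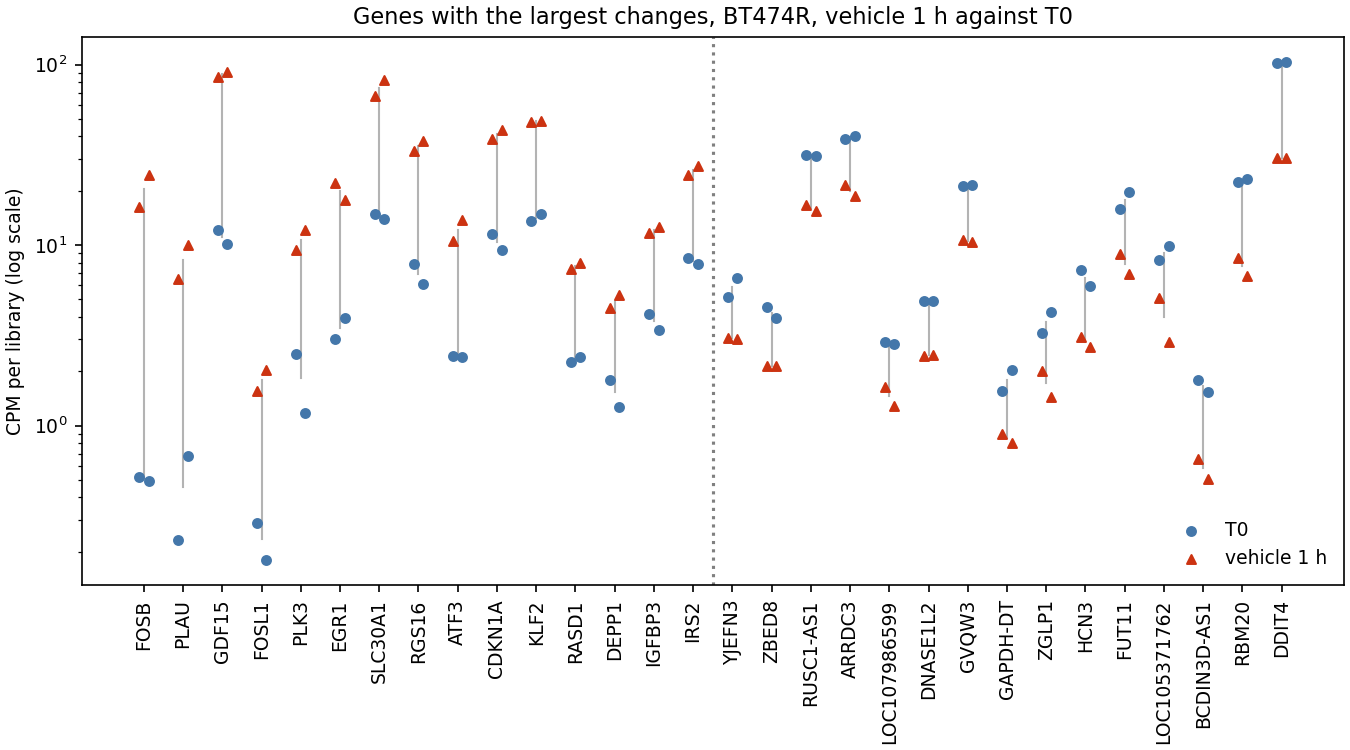
CPM of each of the 4 BT474R libraries (log axis) for the 15 rising and 15 falling genes with the largest changes among called genes of at least 1 CPM on average; circles are T0, triangles vehicle 1 h, grey lines join the group means, and the dotted line parts rising from falling genes. In none of the 30 genes do the groups overlap, which was a condition of the choice, and FOSB spans the widest gap, from 0.496 CPM to 24.4 CPM.

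The FOS and JUN family, whose members pair to form AP-1, held some of the largest changes. Of 12 members tested, 7 rose and none fell, with a median log2 fold change of 0.93 against 0.01 over all genes. FOSB stood at 0.522 and 0.496 CPM at T0 and at 16.4 and 24.4 CPM with vehicle (log2 fold change 5.33 ± 0.33 SE, n = 2 and 2, edgeR adjusted p = 1.7e-09). Its lower vehicle library was far above both T0 libraries, so the groups lay well apart. JUN, the most studied partner of FOS, rose from 49.4 and 44.3 CPM to 118 and 131 CPM (1.42 ± 0.08, edgeR adjusted p = 7.94e-10). ATF3, a stress-induced repressor, rose by 2.34 ± 0.36 and FOSL1, a later FOS relative, by 2.96 ± 0.46 on the log2 scale. In all 4 genes the vehicle libraries differed from each other by less than from T0. FOS itself had 1.33 and 1.17 CPM at T0 and 3.69 and 3.13 CPM with vehicle, and its groups did not overlap, but it missed the threshold (1.44 ± 0.39, edgeR adjusted p = 0.0611). Groups that did not overlap, with vehicle higher, were found for 25.7% of all genes tested, and for 10 of the 12 here. FOS passed with the 4 libraries alone, without the 24 h libraries, without the filter on low counts and in a single fit of both lines.

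Among the EGR and NR4A factors, zinc finger and orphan nuclear receptors of the same early wave, 5 of 9 rose and none fell (median 1.63). EGR1 rose from 3.01 and 3.97 CPM to 22.0 and 17.7 CPM (2.47 ± 0.20, edgeR adjusted p = 8.47e-08). NR4A1 rose from 24.0 and 25.8 CPM to 73.8 and 81.0 CPM (1.63 ± 0.14, edgeR adjusted p = 8.47e-08), and NR4A2 rose by 0.59 ± 0.09. In each of these the groups were far apart relative to the gap between replicates. EGR3 had 0 and 0 counts at T0 and 22 and 40 with vehicle, at least 6.77-fold higher with a floor of 3 counts per library. EGR4 had 1 and 2 counts at T0 and 27 and 43 with vehicle, a ratio of 15.9 with a 95% counting interval of 5.22 to 78.9. At such counts the fitted fold change depends on the model, and counting intervals leave out the spread between cultures. The call for EGR3 was lost in 3 of the 4 fits that left out a library (highest adjusted p by edgeR 0.157), and that for EGR4 without T0 replicate 2 (0.0547).

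Of 38 other immediate early genes, 20 rose and 1 fell (median 0.46). PLK3, a stress-activated kinase, stood at 2.49 and 1.17 CPM at T0 and at 9.34 and 12.1 CPM with vehicle (2.61 ± 0.22, edgeR adjusted p = 1.59e-07). KLF2, a Krüppel-like factor known for its response to flow over endothelium, rose from 13.6 and 14.8 CPM to 48.3 and 49.0 CPM (1.77 ± 0.11, edgeR adjusted p = 7.94e-10). PPP1R15A, which brings a phosphatase to eIF2 alpha and has the CRE shown above, rose from 12.1 and 13.4 CPM to 33.4 and 38.5 CPM (1.5 ± 0.12). TRIB1, a pseudokinase, rose by 1.41 ± 0.11. For all 4 the lowest vehicle library was above the highest T0 library. CITED2, which competes with HIF for its coactivator, was the member that fell, from 44.5 and 50.8 CPM to 26.0 and 27.8 CPM (-0.82 ± 0.11, edgeR adjusted p = 9.87e-05).

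Of 20 feedback inhibitors of MAP kinase signaling, 6 rose and 1 fell (median 0.32). DUSP10, a phosphatase of the stress kinases JNK and p38, rose from 24.4 and 20.8 CPM to 44.0 and 49.8 CPM (1.06 ± 0.09, edgeR adjusted p = 2.38e-07). ERRFI1, which blocks the kinase domain of EGFR, rose from 23.9 and 24.9 CPM to 43.3 and 47.1 CPM (0.89 ± 0.09, edgeR adjusted p = 1.63e-06). DUSP8 rose by 0.70 ± 0.13 and SPRY1 by 0.64 ± 0.11. SPRED3, a relative of SPRY1, fell by 0.54 on the log2 scale. Both DUSP10 and ERRFI1 stayed called without any 1 of the 4 libraries, DUSP8 and SPRY1 each lost the call without T0 replicate 2 and without vehicle replicate 2 (highest edgeR adjusted p 0.122 and 0.0617), and SPRED3 lost it every time (0.292).

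Of 19 targets of YAP and TEAD or of serum response factor, genes of the cytoskeleton and of cell contact, 6 rose and none fell (median 0.16). AMOTL2, a YAP inhibitor, rose from 13.6 and 13.9 CPM to 31.3 and 30.8 CPM (1.17 ± 0.11, edgeR adjusted p = 1.08e-06). CCN1, a secreted matrix protein, rose from 14.5 and 13.8 CPM to 22.7 and 23.4 CPM (0.70 ± 0.11, edgeR adjusted p = 0.000847). FILIP1L rose by 0.85 ± 0.18 and FHL2 by 0.43 ± 0.08, while ACTB and FLNA, actin and the actin crosslinker filamin A, rose by only 0.16 ± 0.04 and 0.17 ± 0.04. Calls for AMOTL2 and CCN1 held with each library left out, while those of FHL2, FILIP1L, ACTB and FLNA were lost in 2, 3, 3 and 3 of 4 such fits, with highest adjusted p by edgeR of 0.153, 0.176, 0.419 and 0.557.

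Most targets of p53 rose: of 16 tested, 11 rose (68.8%) and none fell, beside 1.14% and 1.1% of all genes. All 16 had a log2 change above 0 (median 0.49), as had 12660 of all 24287 genes. CDKN1A, the p21 inhibitor of cyclin-dependent kinases, rose from 11.5 and 9.38 CPM to 38.9 and 43.5 CPM (2.00 ± 0.26, edgeR adjusted p = 7.96e-05). BBC3, the cell death protein PUMA, rose from 9.74 and 9.97 CPM to 21.1 and 21.8 CPM (1.12 ± 0.13, edgeR adjusted p = 1.71e-05). GDF15, a secreted stress cytokine also on the list of the integrated stress response, rose from 12.1 and 10.2 CPM to 84.9 and 91.4 CPM (2.99 ± 0.36, edgeR adjusted p = 2.02e-05). For these genes the 2 libraries of a group were close and the groups were apart. FAS, the death receptor, had 0 and 1 counts at T0 and 12 and 23 with vehicle, a ratio of 23.8 with a 95% counting interval of 4.0 to 967. Its call was lost without T0 replicate 1 and in 2 more of the 4 fits that left out a library (highest adjusted p by edgeR 0.113), and its fitted log2 change ran from 3.59 to 6.94 over the 4. Outside the rule for named genes, MDM2, the ligase that destroys p53, went from 124 and 122 CPM to 210 and 219 CPM (0.80 ± 0.06, edgeR adjusted p = 2.48e-08).

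**Figure D2:**
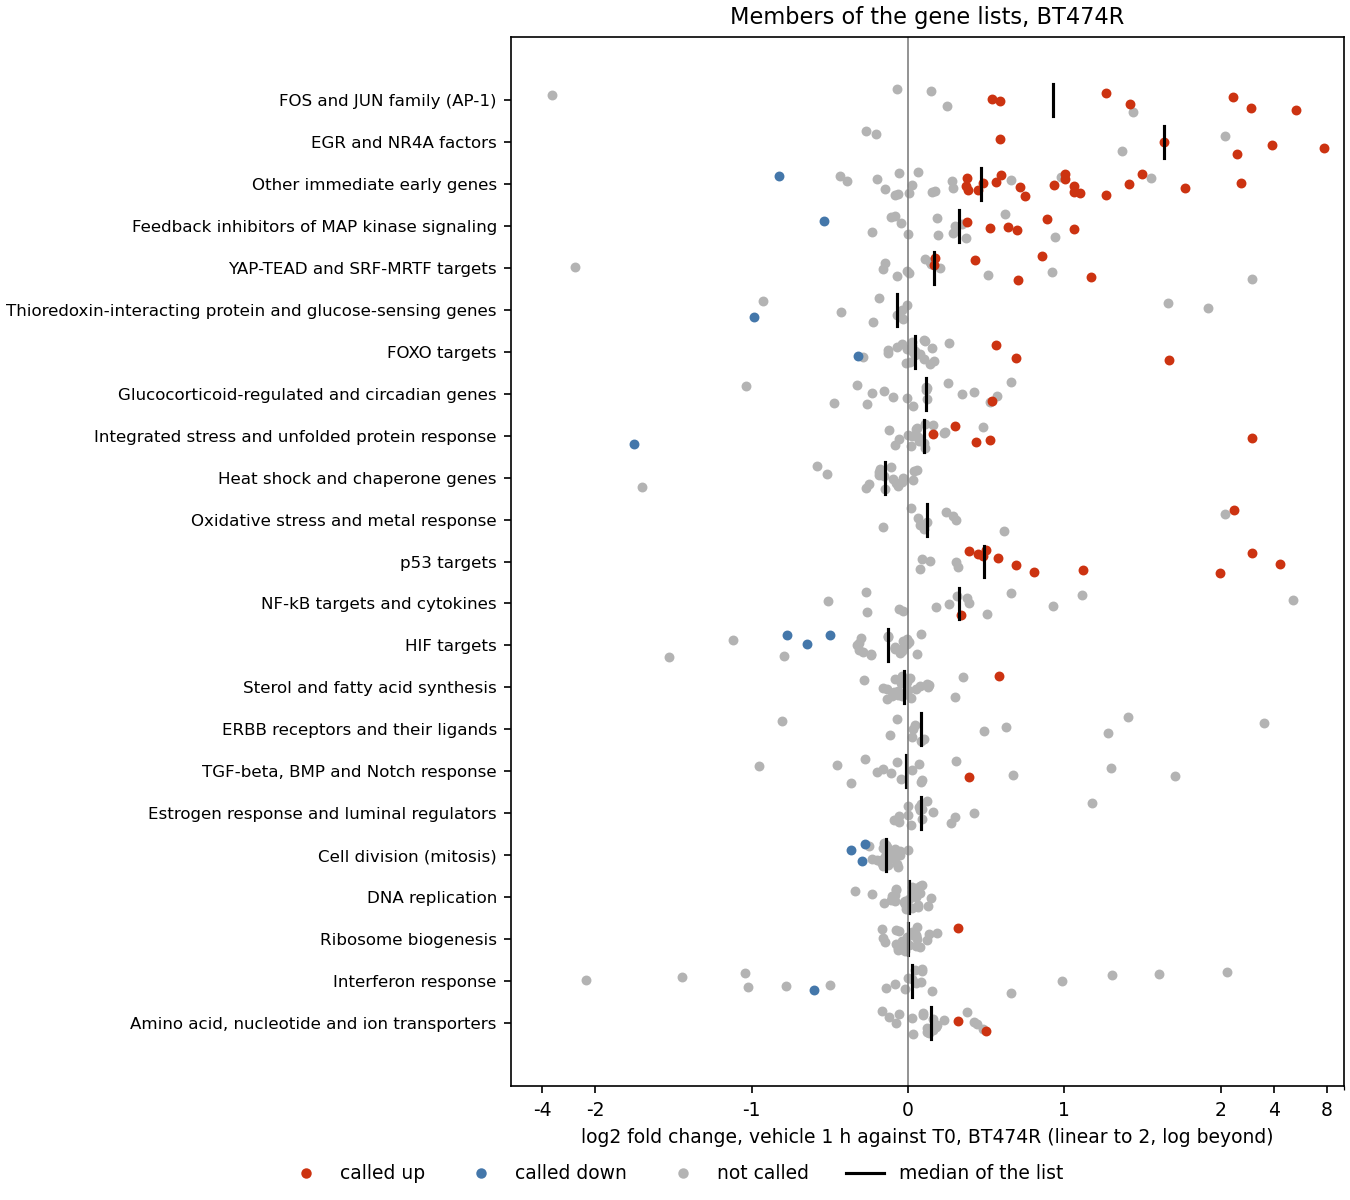
Log2 fold change of vehicle 1 h against T0 in BT474R for every tested member of 23 gene lists (1 point a gene; the axis is linear to 2 and logarithmic beyond); red and blue points were called up and down, grey points were not, and black bars are list medians. Red points gather in the AP-1, EGR, immediate early and p53 lists, with medians of 0.93, 1.63, 0.46 and 0.49, while the HIF and cell division lists lie mostly left of 0. The lists were chosen with earlier results of these data known, so these positions can reflect that choice.

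The integrated stress and unfolded protein response list had 5 of 23 members up and 1 down (median 0.10). The member that fell, DDIT4, blocks mTOR complex 1, and went from 102 and 104 CPM at T0 to 30.5 and 30.5 CPM with vehicle (-1.76 ± 0.19, edgeR adjusted p = 3.2e-06). That was the largest fall among called genes of at least 1 CPM whose groups did not overlap and whose name was no numbered copy. TRIB3, SESN2, SLC3A2 and HSPA5 rose by 0.44, 0.53, 0.30 and 0.16 on the log2 scale. All 4 of these lost the call in at least 1 fit that left out a library, TRIB3 and HSPA5 in every one, with highest adjusted p by edgeR of 0.226, 0.222, 0.0575 and 0.48. Of 19 heat shock and chaperone genes none was called in either direction by edgeR's test or by DESeq2, and 9 had an unadjusted p under 0.05. In 15 of the 19 both vehicle libraries lay below both T0 libraries, beside 22.2% of all genes, and the median was -0.15. The 2 most abundant, HSP90AA1 and HSP90AB1, had log2 changes of -0.08 ± 0.07 and -0.04 ± 0.05. With the 4 libraries alone 10 of the 19 were called down, and 6 without the 24 h libraries.

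A few targets of HIF fell: of 27 tested, 3 fell and none rose, and 24 had a log2 change below 0 (median -0.13). A change below 0 was found for 11571 of all 24287 genes. VEGFA, the vascular growth factor, fell from 273 and 267 CPM to 179 and 166 CPM (-0.65 ± 0.10, edgeR adjusted p = 0.000394). STC2, a secreted glycoprotein, fell from 36.4 and 40.7 CPM to 23.3 and 22.0 CPM (-0.77 ± 0.11, edgeR adjusted p = 0.000192). ANKZF1, a factor of ribosome quality control, fell from 66.8 and 63.1 CPM to 46.8 and 45.1 CPM; its log2 change was -0.54 to -0.47 as libraries were left out, and the call was lost without T0 replicate 1 and without vehicle replicate 2 (highest edgeR adjusted p 0.118). ADM, the peptide adrenomedullin, had 3.59 and 2.80 CPM at T0 and 1.23 and 0.985 CPM with vehicle and missed the threshold (-1.53 ± 0.45, edgeR adjusted p = 0.0847). Vehicle was below T0 in both libraries for 18 of the 27, beside 22.2% of all genes, and the number called down was 11 with the 4 libraries alone. The share called down, 11.1%, stood beside 1.1% of all genes.

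Genes tied to nutrients and insulin moved in both directions. ARRDC3, an arrestin-domain relative of TXNIP, fell from 38.8 and 40.3 CPM to 21.4 and 18.7 CPM (-0.99 ± 0.10, edgeR adjusted p = 1.32e-06), the only 1 of 11 TXNIP and glucose-sensing genes called. TXNIP, an inhibitor of glucose uptake, had 375 and 369 CPM at T0 and 327 and 310 CPM with vehicle (-0.22 ± 0.07, edgeR adjusted p = 0.114). Of 25 FOXO targets 3 rose and 1 fell: IRS2, an adaptor of the insulin receptor, rose from 8.52 and 7.89 CPM to 24.3 and 27.6 CPM (1.67 ± 0.11, edgeR adjusted p = 3.35e-09), SESN1 rose by 0.69 ± 0.08 and GADD45A by 0.56 ± 0.11, and CCNG2 fell by 0.32. Calls for IRS2, SESN1 and ARRDC3 held with each library left out, and those for GADD45A and CCNG2 were lost in 3 of 4 fits (highest edgeR adjusted p 0.112 and 0.187).

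The rest of the 15 largest rises included PLAU, RGS16, SLC30A1, RASD1, IGFBP3 and DEPP1. PLAU, the urokinase plasminogen activator, rose from 0.232 and 0.677 CPM to 6.52 and 9.99 CPM (4.11 ± 0.31, edgeR adjusted p = 2.48e-08), with a log2 change of 3.61 to 5.15 as libraries were left out. RGS16, which speeds GTP hydrolysis by G proteins, rose from 7.83 and 6.09 CPM to 33.1 and 37.7 CPM (2.36 ± 0.15, edgeR adjusted p = 2.62e-09). SLC30A1, a zinc exporter of the plasma membrane, rose from 15 and 14 CPM to 66.8 and 81.9 CPM (2.37 ± 0.35, edgeR adjusted p = 0.000323). It was the only 1 of 13 oxidative stress and metal genes called, and its call held in all 4 fits without a library. RASD1, a Ras-like protein, and IGFBP3, which binds insulin-like growth factors, rose by 1.72 ± 0.17 and 1.70 ± 0.14, and DEPP1, a FOXO-regulated gene, by 1.71 ± 0.22.

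Among the genes that fell most, RBM20, a splicing regulator, went from 22.4 and 23.1 CPM to 8.48 and 6.77 CPM (-1.59 ± 0.15, edgeR adjusted p = 1.19e-06). FUT11, a fucosyltransferase, fell from 15.8 and 19.7 CPM to 8.89 and 6.89 CPM (-1.19 ± 0.16) and HCN3, a pacemaker-type ion channel, from 7.30 and 5.91 CPM to 3.11 and 2.72 CPM (-1.18 ± 0.18). GVQW3 fell from 21.2 and 21.7 CPM to 10.7 and 10.4 CPM (-1.02 ± 0.11, edgeR adjusted p = 7.01e-06). RUSC1-AS1 went from 31.7 and 31.3 CPM to 16.7 and 15.4 CPM (-0.98 ± 0.19, edgeR adjusted p = 0.00407). The others were below 10 CPM in every library compared: ZGLP1, DNASE1L2, ZBED8 and YJEFN3 fell by 0.96 to 1.16, and BCDIN3D-AS1, GAPDH-DT, LOC105371762 and LOC107986599 by 0.99 to 1.52, on the log2 scale. BCDIN3D-AS1 and RUSC1-AS1 are antisense genes and GAPDH-DT a divergent one, and since the strand setting of the counting was not stated, their reads cannot be told from those of an overlapping partner. Calls of BCDIN3D-AS1, GAPDH-DT, DNASE1L2, LOC107986599 and YJEFN3 were lost in every fit without a library, with highest edgeR adjusted p of 0.282, 0.418, 0.197, 0.408 and 0.383. Those of ZGLP1, LOC105371762, ZBED8 and RUSC1-AS1 were lost in 2, 2, 3 and 1 of the 4 (0.358, 0.2, 0.122 and 0.0958).

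Few members of the remaining lists were called. Of 27 mitotic genes, CENPA, CDK1 and ASPM fell, by 0.37, 0.29 and 0.27 on the log2 scale. A change below 0 was found for 26 of the 27 (median -0.14) and for 11571 of all 24287 genes. Both vehicle libraries lay below both T0 libraries for those 26, beside 22.2% of all genes. The share called down, 11.1%, stood beside 1.1% of all genes. The 3 calls were lost in every fit without a library (highest edgeR adjusted p 0.329, 0.249 and 0.147), and none of the 27 was then called, while 12 were with the 4 libraries alone. No DNA replication gene of 27, no estrogen response or luminal regulator of 17 and none of 13 ERBB receptors and ligands was called by edgeR's test or by DESeq2. At an unadjusted p under 0.05 there were 1, 3 and 4 such genes, and with the 4 libraries alone 2, 5 and 3 were called. ERBB2 stood at 9141 and 8836 CPM at T0 and 9589 and 9704 CPM with vehicle (0.10 ± 0.05, edgeR adjusted p = 0.338), and EGFR at 635 and 676 and at 674 and 717 CPM (0.09 ± 0.09, 0.774). NFKBIA rose (0.34), the only call of 16 NF-kB genes, PER2 (0.53) the only one of 20 glucocorticoid-regulated and circadian genes (2 with DESeq2), MYLIP (0.58) of 28 sterol and fatty acid genes, TGIF1 (0.39) of 18 TGF-beta, BMP and Notch genes, and WDR43 (0.32) of 26 ribosome biogenesis genes. IRF9 fell by 0.60, the only call of 23 interferon genes, and SLC7A2 (0.50) and SLC20A1 (0.32) rose of 22 transporters. Both vehicle libraries lay above both T0 libraries for 15 of the 22, beside 25.7% of all genes, and below them for 2. With the 4 libraries alone 9 transporters were called up and 1 down. Of the 16 NF-kB genes 9 had an unadjusted p under 0.05 by edgeR's test. With the 4 libraries alone 5 of them were called up and 1 down. PER1, the clock gene known for fast induction, had 5.16 and 5.73 CPM at T0 and 8.11 and 7.67 CPM with vehicle (0.53 ± 0.22, edgeR adjusted p = 0.283). Calls of NFKBIA and IRF9 were lost in every fit without a library, those of PER2, TGIF1, WDR43 and SLC20A1 in 1 or 2, and those of MYLIP and SLC7A2 in none.

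The promoters of the genes that rose held most of the searched sites somewhat more often than all promoters, as a description without a test. The heat shock pattern was near the share of all promoters. Of 203 rising genes with a promoter of 300 bases in the RefSeq table, 5.91% held a CRE (TGACGTCA) on either strand, against 2.79% of 15109 promoters of all genes tested and 2.05% of 195 falling genes. The CArG box stood in 3.45%, 1.1% and 2.05% of the 3 sets, and the AP-1 site (TGANTCA) in 7.88%, 5.64% and 5.13%. These shares rest on few promoters: 12 of the 203 rising genes held a CRE and 7 a CArG box. Of the 43 that rose by a log2 fold change of 1 or more, 3 held a CRE and 1 a CArG box. An EGR site (GCGGGGGCG) was found in 10.8%, 7.27% and 6.67%, an E-box (CACGTG) in 11.3%, 9.21% and 9.74%, and the heat shock pattern GAANNTTC in 5.42%, 5.15% and 8.21%. The CArG boxes in the EGR1 promoter lay 105 and 83 bases before its start, and the CREs lay 58 bases before the start of PPP1R15A and 118 and 74 before that of DUSP8. The matches in capitals do not overlap each other.

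Levels at other times and with ligand place the 1 h values in context; these libraries share T0 or vehicle with the comparison above, so only levels are given. FOSB was at 0.647 and 0.728 CPM with vehicle at 12 h and at 0.742 and 0.507 CPM at 24 h, close to T0. At 1 h it was at 106 and 144 CPM with EGF and at 110 and 78.6 CPM with HRG, above both vehicle libraries. EGR1 with vehicle was at 6.25 and 5.49 CPM at 12 h and 5.78 and 4.38 CPM at 24 h, above both T0 libraries and below both 1 h libraries. With ligand at 1 h it was at 260 and 278 CPM for EGF and 184 and 137 CPM for HRG. In contrast, PLAU was at 12.0 and 14.2 CPM with EGF, 11.2 and 9.17 CPM with HRG and 6.52 and 9.99 CPM with vehicle, so that the HRG and vehicle ranges overlapped. The vehicle range also overlapped that of HRG for SLC30A1 (79.3 and 76.0 CPM with HRG against 66.8 and 81.9) and for CDKN1A (36.9 and 43.9 against 38.9 and 43.5). DDIT4 was low in all 1 h libraries, at 22.5 and 21.4 CPM with EGF and 27.1 and 28 CPM with HRG, and stood at 100 and 143 CPM with vehicle at 12 h and 175 and 256 CPM at 24 h. VEGFA with vehicle reached 280 and 329 CPM at 12 h and 457 and 536 CPM at 24 h, above both T0 libraries.

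**Figure D3:**
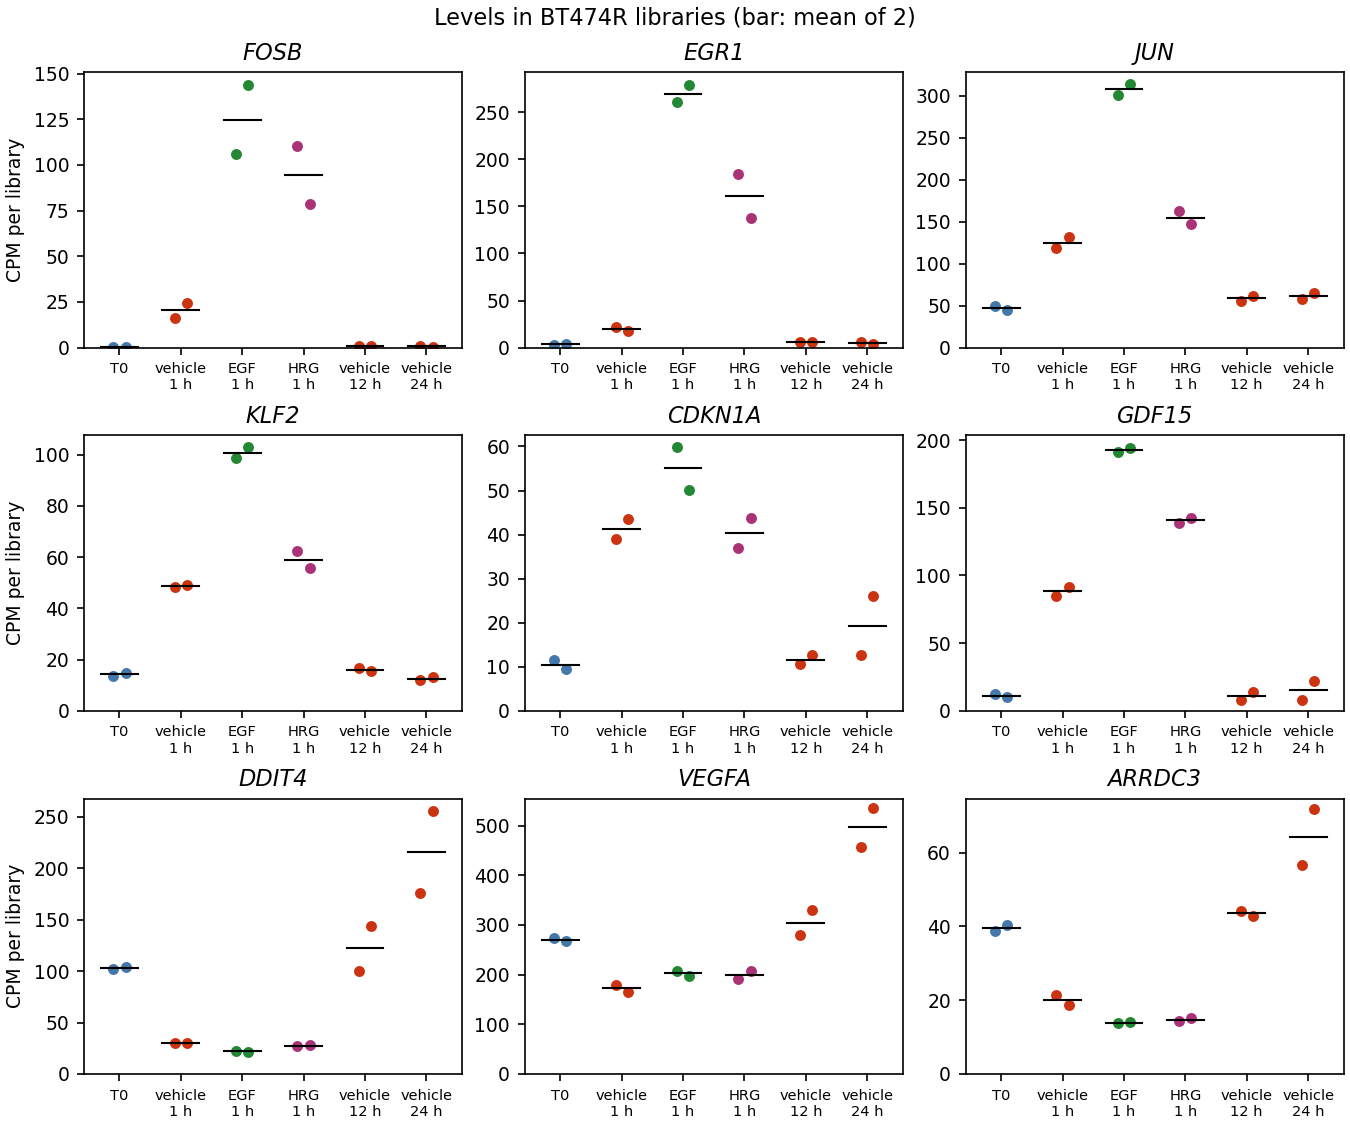
CPM per library (points) and the mean of 2 libraries (bars) in BT474R for 9 genes at T0, at 1 h with vehicle, EGF or HRG and at 12 h and 24 h with vehicle. FOSB, EGR1, JUN, KLF2, CDKN1A and GDF15 are highest in the 1 h libraries of those drawn, whereas DDIT4, VEGFA and ARRDC3 are lowest there.

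The same comparison in the parental line, BT474, was used to ask where the response of BT474R differed. In BT474, 1662 of 25146 genes were called (6.61%), 923 up (3.67%) and 739 down (2.94%), a split that was 817 and 908 with copy rows summed and 1232 and 1230 with the 4 BT474 libraries alone. Of the 544 genes called in BT474R, 498 (91.5%) had the same sign in BT474, against 58% of 23366 genes tested in both lines, and 165 rising genes were called in both (59.6% of those in BT474R and 17.9% of those in BT474), as were 120 falling genes (44.9% and 16.2%). The difference of the vehicle effect between lines, tested as an interaction in 1 fit of all 40 libraries, was called for 120 of 24641 genes (0.487%), 38 higher and 82 lower in BT474R. That count was 39 to 66 as each of the 8 libraries was left out (39 without BT474R vehicle replicate 2 and 66 without BT474 vehicle replicate 1) and 972 with the 8 libraries alone. The split was 498 higher and 474 lower with the 8 libraries alone and 28 and 25 without BT474R vehicle replicate 1, so the excess of lower genes was not seen in those fits. Effects on JUN (1.42 in both), EGR1 (2.47 and 2.56), KLF2 (1.77 and 1.75) and NR4A1 (1.63 and 1.55) were close in size. These 4 are shown for that closeness. Their differences, BT474R minus BT474, were 0.01 ± 0.11, -0.08 ± 0.26, 0.03 ± 0.14 and 0.09 ± 0.18. Other early genes lay further apart. FOSL1 rose by 2.96 in BT474R and 5.3 in BT474, ATF3 by 2.34 and 3.37, and TRIB1 by 1.41 and 0.99, without a called difference. The difference was called for no gene of the AP-1 list or the EGR and NR4A list. Of 38 other immediate early genes it was called higher in BT474R for 2 and lower for 2.

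**Figure D4:**
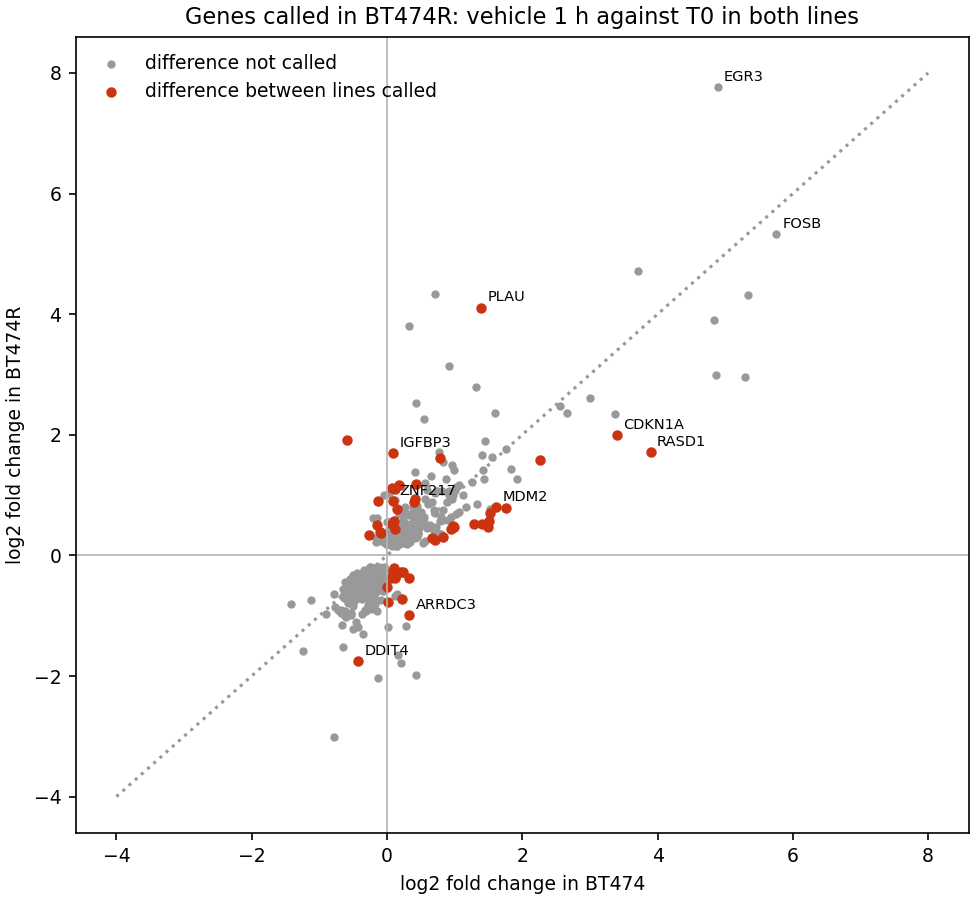
Log2 fold change of vehicle 1 h against T0 in BT474 (x axis) and BT474R (y axis) for the genes called in BT474R; red points are genes whose difference between lines was called, and the dotted line marks equal change. Most points follow the diagonal; PLAU and IGFBP3 lie above it, and CDKN1A, RASD1, MDM2 and ARRDC3 below.

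Genes with a smaller rise or a larger fall in BT474R included 3 p53 targets. CDKN1A rose by 3.40 in BT474 and 2.00 in BT474R (difference -1.39 ± 0.33, edgeR adjusted p = 0.038), a call that was lost in each of 8 fits without 1 library (highest edgeR adjusted p 0.268). MDM2 rose by 1.62 and 0.80 (-0.80 ± 0.07, edgeR adjusted p = 4.34e-09) and TNFRSF10B, a death receptor, by 1.49 and 0.48 (-1.0 ± 0.10, edgeR adjusted p = 5.55e-08), both outside the rule for named genes. The other 13 of the 16 p53 genes were not called for the difference. RASD1 rose by 3.90 in BT474 and 1.72 in BT474R (-2.17 ± 0.51, edgeR adjusted p = 0.038, lost in 7 of 8 such fits, highest edgeR adjusted p 0.309). CYP1A1, an enzyme induced by the aryl hydrocarbon receptor, rose by 2.30 in BT474 and had a change of 0.59 that missed the threshold in BT474R (-1.71 ± 0.22, edgeR adjusted p = 7.25e-06). DDIT4 fell in both lines, by 0.42 in BT474 and by 1.76 in BT474R (-1.32 ± 0.22, edgeR adjusted p = 0.000693), and ADM rose in BT474 by 1.09 (-2.61 ± 0.51, edgeR adjusted p = 0.00613, lost in 2 of 8 fits, highest edgeR adjusted p 0.0837). STC2, at -0.77 in BT474R and 0.01 in BT474, was the other HIF target called (-0.78 ± 0.14, edgeR adjusted p = 0.0015).

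Genes with a larger rise in BT474R included PLAU (4.11 against 1.40, difference 2.72 ± 0.66, edgeR adjusted p = 0.0452) and IGFBP3 (1.70 against 0.09, 1.62 ± 0.24, edgeR adjusted p = 0.000154). KLHL38, a kelch-repeat protein, rose by 1.91 in BT474R (difference 2.51 ± 0.51), and TRIM29, a tripartite motif protein of stratified epithelium, by 0.91 (1.06 ± 0.23). LOXL4, a lysyl oxidase relative, had 0.66 in BT474R, which was not called, and fell by 0.67 in BT474 (1.34 ± 0.28). Without 1 library at a time the call for IGFBP3 held in all 8 fits, while those for PLAU, KLHL38, LOXL4 and TRIM29 were lost in 6, 4, 5 and 4 of them, with highest adjusted p by edgeR of 0.505, 0.11, 0.186 and 0.22.

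The mitotic list lay on opposite sides of 0 in the 2 lines. In BT474, 14 of the 27 rose and none fell (median 0.19), and the difference was called for 11 of 27, all lower in BT474R, against 0.333% of all genes. These 11 were MKI67, TOP2A, CCNB1, CDK1, KIF11, KIF20A, KIF23, CENPF, CENPA, UBE2C and ASPM, with differences of -0.68 (CENPA) to -0.30 (CCNB1). Whether these 11 calls held with a library left out was not examined gene by gene. ASPM, which organizes spindle poles, went from 328 and 334 CPM to 275 and 272 CPM in BT474R, and its change was 0.24 in BT474 (difference -0.51 ± 0.08, edgeR adjusted p = 0.000154). Medians of opposite sign were also found for the HIF list (-0.13 in BT474R and 0.09 in BT474) and the TXNIP and glucose-sensing list (-0.07 and 0.21). Of 27 HIF targets, 4 rose and 2 fell in BT474, and the difference was called lower in BT474R for 2. Of 11 TXNIP and glucose-sensing genes, 5 rose in BT474, and the difference was called lower in BT474R for 2. In all, 6 genes were called in both lines with opposite signs: ASPM, CENPA, DEPDC1 and ARRDC3 fell in BT474R and rose in BT474, and NFKBIA and SLC7A2 did the reverse. ARRDC3 had the largest gap of the 6, -0.99 against 0.33 (-1.31 ± 0.12, edgeR adjusted p = 1.32e-08).

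**Figure D5:**
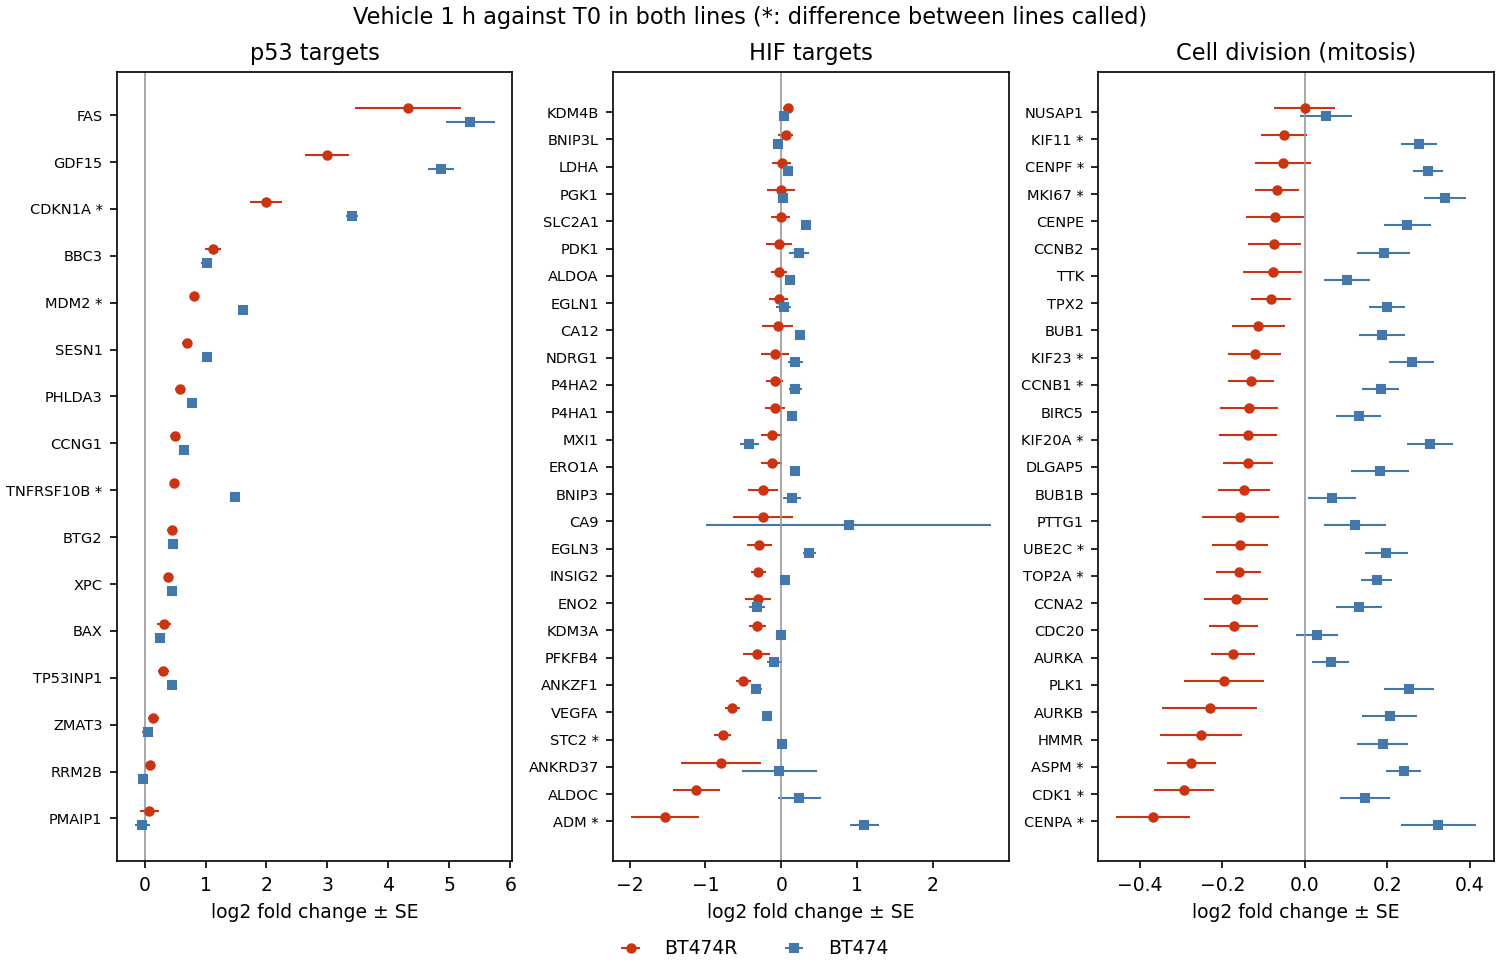
Log2 fold change of vehicle 1 h against T0 with its standard error for each tested member of the p53, HIF and cell division lists, in BT474R (red circles) and BT474 (blue squares); a star marks a called difference between lines. All 16 p53 genes lie above 0 in BT474R, and 26 of 27 cell division genes lie below 0 in BT474R, left of their values in BT474.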

How the data were processed

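Serum-starved BT474 and BT474R cells were sequenced as bulk RNA at T0 and after vehicle, EGF or HRG, in 40 libraries of 20 groups. The authors deposited whole-number read counts per gene name for all libraries in 1 table. Their processing notes name Trim Galore 0.6.6, FastQC, MultiQC, featureCounts and build GRCh38.p13. Whether counting used strand was not given in the sources used here. Of the names, 5078 are numbered copies of another name and could split reads. Transcripts of the mitochondrial genome were not analysed here.

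Groups came from the labels. The study's methods say that cells were treated in wells of a plate, in duplicate; nothing says that duplicates came from separate experiments, so p-values measure only the spread between these samples. Genes with at least 1 count in 50% of a line's 20 libraries were tested with edgeR 4.0.16 (TMM, quasi-likelihood, 1 coefficient per group, Benjamini-Hochberg adjusted p under 0.05) in R 4.3.3. Errors are standard errors of the log2 fold change, and CPM was computed with TMM-scaled totals, except in the marker sums, which used raw totals. The difference between lines was an interaction in 1 fit of 40 libraries. The test was tried on simulated counts for the vehicle comparison in BT474R (24287 genes). Each gene had its mean level over all 20 BT474R libraries in every group, and the same spread in every group. Changes were put into 200 genes of at least 1 CPM on average. Of those changed by 0.5, 1 and 2 on the log2 scale, 61.2%, 89.6% and 100% were called, and 10 unchanged genes were called too. These rates apply to counts drawn in that way and not to genes below 1 CPM. In the real libraries the groups differed in level and in the spread between replicates, so the rates may not hold for them. Counts limit low genes, and intervals cover counting error only.

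The members and lists were chosen with earlier results of these data known. Named genes were the 15 largest changes per direction (called, at least 1 CPM, groups not overlapping, no copy names), the called members of each list (the 4 largest where more than 6 were called, or the 2 most abundant if none was), the 5 largest called differences per direction between lines, and FOS, JUN, EGR1, ATF3, TXNIP, PER1, ERBB2 and EGFR. Alternatives were DESeq2 1.42.0 and its size factors, other filters, other sets of libraries, a replicate block, thinning, summed copies and leaving out each library. The fit without the 24 h libraries was chosen after seeing the data. CArG boxes were searched as CC, 6 of A or T, GG.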

Additional observations from a re-analysis of the deposited data

Results flagged for a closer look

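For 23 named genes the vehicle effect differed between the lines by the interaction test in edgeR (adjusted p under 0.05), here as BT474R minus BT474 on the log2 scale. It was higher in BT474R for PLAU (2.72), KLHL38 (2.51), IGFBP3 (1.62), LOXL4 (1.34), TRIM29 (1.06), SLC7A2 (0.66), NFKBIA (0.61) and TGIF1 (0.50). It was lower in BT474R for ADM (-2.61), RASD1 (-2.17), CYP1A1 (-1.71), CDKN1A (-1.39), DDIT4 (-1.32), ARRDC3 (-1.31), GADD45A (-0.94), SESN2 (-0.87), CCN1 (-0.81), STC2 (-0.78), CENPA (-0.68), ASPM (-0.51), CDK1 (-0.43), CCNG2 (-0.43) and TXNIP (-0.38). With 2 libraries a group, no test for a single library far from its group was run. BT474R is 1 clone, so a difference that comes with trastuzumab resistance and one particular to this clone cannot be told apart.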

How the results depend on the processing

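The number of genes called in BT474R (544) was 508 with DESeq2, 551 with its size factors, 627 with edgeR's own filter, 460 after thinning and 536 with copies summed. It was 892 (403 up and 489 down) with no filter on low counts, 2258 with the 4 libraries alone, 873 in 1 fit of both lines, 1453 without the 24 h libraries (chosen after seeing the data; all 544 were among these, as among the 2258) and 164 to 281 as each library was left out. In BT474 (1662) it was 804 to 940 as each library was left out, and within 1.5 times under the other settings. For the difference between lines (120) it was 196 with DESeq2, 280 with no filter, 972 with the 8 libraries alone and 39 to 66 as each library was left out. Fits without a library have 1 sample in a group, which is assumed to vary like the other groups. Fits on other sets of libraries estimate the spread from those libraries, and the cause of the other changes was not tested.

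The labels do not say what a shared replicate number means. Over 45 pairs of groups in BT474R the deviations of same-numbered libraries had a median correlation of 0.01 (-0.39 to 0.56). The correlation was over 0.1 for 18 of the 45 pairs, and 0.18 between T0 and vehicle at 1 h. Whether libraries were paired cannot be told from these values. With the replicate number as a block, 578 genes were called in BT474R (535 of the 544 among them), 1787 in BT474 and 160 for the difference.

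Of 877 values of the 88 named genes in BT474R under the 10 settings that kept all 4 libraries, 834 kept their direction and side of the threshold, 13 lost the call and 23 gained it. The rest turned sign near 0. XBP1 (0.0017) was at -0.0039 with DESeq2 and with its size factors, -0.0073 with edgeR's filter, -0.0018 with the 4 libraries alone, -0.00012 in 1 fit of both lines, -0.011 after thinning, -0.0075 without T0 replicate 1 and -0.016 to 0.014 over the 4 fits without a library. KRT19 (-0.00051) was at 0.00078 with no filter, 0.015 without vehicle replicate 1 and -0.024 to 0.018 over those 4 fits, MCM7 at -0.098 to 0.055 (0.055 without T0 replicate 1), and IGFBP3 in BT474 at -0.22 to 0.32 (-0.22 without vehicle replicate 2). DESeq2 gave no adjusted p for FAS, BCDIN3D-AS1 and KLHL38 in BT474R, for PLAU and KLHL38 in BT474, nor for PLAU, IGFBP3, KLHL38, LOXL4, TRIM29 and ADM in the difference. Depth limits genes at a few counts, such as EGR3, EGR4 and FAS.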

Other observations

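Genes named as zinc finger proteins made up many of those that fell, a group chosen after its values were seen. Of 626 such genes tested in BT474R (plain names only), 55 fell (8.79%) and 12 rose (1.92%), beside 1.1% and 1.14% of all genes, and the median log2 change was -0.07. Counting numbered copies too, such names were 21.7% of the 267 falling genes and 2.72% of all genes. ZNF594 went from 14.3 and 15.2 CPM at T0 to 8.20 and 7.58 CPM with vehicle (-0.91 ± 0.12 SE, edgeR adjusted p = 0.000123). ZFP14 went from 22.0 and 20.9 CPM to 12.6 and 11.2 CPM (-0.85 ± 0.09, edgeR adjusted p = 1.48e-06). In BT474, 81 of 621 fell and 23 rose. Related members of this family share sequence, so the counting could split their reads, and these values are uncertain.

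The next 5 genes were also picked after their values were seen, and for the first 4 the difference between lines was called. ZNF217, an oncogene amplified in some breast cancers, went from 420 and 430 CPM to 755 and 836 CPM in BT474R and from 339 and 325 CPM to 359 and 345 CPM in BT474 (difference 0.83 ± 0.06, edgeR adjusted p = 6.39e-11). MYC went from 3.71 and 3.79 CPM to 8.81 and 7.40 CPM in BT474R, and from 48.8 and 52.4 CPM to 53.5 and 56.2 CPM in BT474 (0.99 ± 0.17, edgeR adjusted p = 0.0016). OVOL1 and ZNF750, both regulators of epidermal differentiation, rose by 1.17 and 1.62 in BT474R (differences 1.01 ± 0.19 and 0.85 ± 0.17, edgeR adjusted p = 0.00542 and 0.00842). GRHL3, another such factor, rose by 1.54 in BT474R and 0.82 in BT474, and its difference missed the threshold (0.73 ± 0.19, edgeR adjusted p = 0.073).

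Of the rising genes found in RefSeq, 1.95% were long noncoding, as were 5.24% of the falling genes and 20.3% of all genes tested. The median gene span was 22100 bases for rising, 22584 for falling and 22593 for all genes tested, and the median mean level was 40.4, 23.0 and 3.76 CPM.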
